A study of Homo sapiens with 2 samples.

Results

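The transcription factors examined here either hold the germinal centre B-cell state or drive plasma cell fate. They were taken by name as 10 of the 37122 rows of a table of RNA-seq read counts for the cell lines Ramos and Ramos640: BCL6, PAX5, BACH2, IRF8, EBF1, MEF2C and POU2AF1 as 7 factors of B-cell identity, and PRDM1, IRF4 and XBP1 as 3 factors of the plasma cell program. Ramos is an established human Burkitt's lymphoma line, a B-cell tumor whose cells resemble germinal centre B cells. Ramos640 was derived from it by growth in rising rituximab, an antibody against CD20, with normal human serum as the source of complement, until the cells withstood complement-dependent cytotoxicity (CDC). The resistant cells were re-treated every 21 days with 20% serum and with rituximab at 640 mg/mL by the sample labels and at 640 μg/mL by the study's methods. Both lines grew in the same serum-supplemented RPMI medium, and the labels give no treatment for Ramos. Total RNA of 3 passages was combined within each line, so that there was 1 library per line and no difference between the lines has a replicate check.

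The libraries held 38030090 reads for Ramos and 30871826 for Ramos640. All 7 B-cell markers examined were read in both libraries (among them MS4A1, CD79A, CD79B, CD22, CD37 and CD74), together 5033 and 6198 CPM (counts scaled to each library's total) in Ramos and Ramos640. MS4A1, the gene of CD20, had 9654 and 1904 reads (log2 fold change -1.96). The markers of other cells were near the floor: 9 T-cell markers summed to 0.815 and 2.92 CPM, 8 monocyte markers to 1.31 and 0.81 CPM, and 8 epithelial markers to 1.68 and 0.842 CPM. Of the T-cell markers, 6 were at 0 in both libraries (among them CD3D, CD2, CD5, CD7 and TRAT1), while CD3E had 1 and 31 reads and CD247 had 25 and 58.

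In a germinal centre, BCL6 represses the genes of activation and of terminal differentiation, among them PRDM1, while PAX5 and EBF1 maintain B-cell identity. Once PRDM1 (which encodes Blimp-1) is expressed, it represses PAX5 and BCL6 and, with IRF4, commits the cell to antibody secretion. XBP1 then expands the secretory machinery of the endoplasmic reticulum. Burkitt's lymphoma cells usually keep the BCL6-high, PRDM1-low state.

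Sequences are shown for promoter windows that hold letters read by factors of this circuit, not for each link named above. BCL6, EBF1 and PRDM1 have promoter windows (RefSeq, 300 bases, most of them upstream of a start site) that hold letters recognised by BCL6, by PRDM1 and by the AP-1 and BACH2 families. Each window occurred once in GRCh37, the build of the study. Capitals mark TTCCNNGAA, a core of BCL6 sites, in BCL6, the overlapping ETS-IRF element (GGAA, any 2 bases, GAAA) and ACTTTC (a core of PRDM1 sites) in EBF1, and TGANTCA (AP-1 and Maf recognition elements) at a start site inside PRDM1. Letters were searched on both strands.
BCL6 chr3:187463207-187463506, minus strand: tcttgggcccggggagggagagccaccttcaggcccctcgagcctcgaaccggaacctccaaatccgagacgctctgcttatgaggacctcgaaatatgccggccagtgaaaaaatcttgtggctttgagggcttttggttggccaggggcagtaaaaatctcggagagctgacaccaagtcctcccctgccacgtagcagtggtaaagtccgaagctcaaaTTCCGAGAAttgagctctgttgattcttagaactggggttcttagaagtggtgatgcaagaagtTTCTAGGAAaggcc
EBF1 chr5:158524915-158525214, minus strand: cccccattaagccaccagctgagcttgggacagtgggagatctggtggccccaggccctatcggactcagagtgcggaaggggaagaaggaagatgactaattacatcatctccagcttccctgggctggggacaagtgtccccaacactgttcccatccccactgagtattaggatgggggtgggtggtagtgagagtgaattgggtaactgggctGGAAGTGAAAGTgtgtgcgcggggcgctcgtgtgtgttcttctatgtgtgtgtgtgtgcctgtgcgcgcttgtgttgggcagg
PRDM1 chr6:106546566-106546865, plus strand: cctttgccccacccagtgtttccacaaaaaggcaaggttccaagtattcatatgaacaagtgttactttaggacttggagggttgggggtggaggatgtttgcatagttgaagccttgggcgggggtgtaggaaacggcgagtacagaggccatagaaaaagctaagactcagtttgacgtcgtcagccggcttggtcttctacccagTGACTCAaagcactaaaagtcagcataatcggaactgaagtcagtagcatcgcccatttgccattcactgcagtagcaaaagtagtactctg

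The BCL6 window shown held TTCCNNGAA at positions -28 and 37 from the start site, and the other BCL6 window did not hold it. TTCCNNGAA was present in 4.45% of the 35116 promoter windows of RefSeq and in 1 of the 19 windows of the members. In the EBF1 window the ETS-IRF letters began at position -33 and the PRDM1 core at -27, and they shared 4 bases. Over all windows the ETS-IRF letters were present in 2.82% and ACTTTC in 13.3%, and ACTTTC was also in 4 of the 7 windows of MEF2C. ACTTTC was in no window of PAX5 or BCL6, and TTCCNNGAA was in no window of PRDM1. TGANTCA was present in 7.71% of all windows and lay at position -42 of the PRDM1 window shown, at -77 in the other BCL6 window, and at -64 and -37 in a window of MEF2C. The octamer ATGCAAAT (1.77% of all windows), to which POU2AF1 binds together with an OCT factor, was found in 1 window of MEF2C, and the E-box CANNTG (68.7%) in 13 of the 19. The IRF element (GAAA, any 2 bases, GAAA; 3.57% of all windows), the MEF2 element (CTA, any 4 bases, TAG; 2.73%), the EBF element (TCCC, any 2 bases, GGGA; 1.21%) and the XBP1 element TGACGTGG (0.729%) were in no window of a member. The members matched were 9 of 10, without POU2AF1. A match is a description of letters and not a binding site.

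Another sequence bears on XBP1, whose mRNA is cut by IRE1 under endoplasmic reticulum stress to remove a short intron and shift the reading frame toward the active protein. The annotated intron is 26 bases long and lies in an exon of the coding region, on chromosome 22 of GRCh37 from 29192116 to 29192141, and it is in capitals here with 30 bases on either side. Of the annotated transcripts, 4 keep the intron and 1 lacks it. GCAG begins the capitals and also follows them, so the annotated ends need not be the exact cut sites of IRE1.
XBP1 chr22:29192086-29192171, minus strand: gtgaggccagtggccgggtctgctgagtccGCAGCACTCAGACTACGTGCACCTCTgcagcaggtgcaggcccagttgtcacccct
The deposited count covers the gene as a whole, so the spliced and unspliced forms of XBP1 cannot be told apart in what follows.

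All 7 B-cell identity factors had fewer normalized reads in Ramos640 than in Ramos, and of the plasma cell factors XBP1 and PRDM1 had more. Normalized reads are counts divided by median-of-ratios size factors (1.14 for Ramos and 0.876 for Ramos640), and each fold change is the log2 ratio of Ramos640 to Ramos after 1 was added to both. Intervals are exact 95% Clopper-Pearson intervals, which cover counting error only. The counting intervals of 8 members lay below 0 and those of 2 above 0. Over the 18778 genes that reached 10 reads when both libraries were added, 31.6% had an interval below 0 and 29.6% above it. Over the 8226 genes with at least 1000 reads, which leave counting error less room, these shares were 39.4% and 40.9%. By the study's fold limit of 1.5, 2 members were lower (PAX5 and MEF2C) and 2 were higher (PRDM1 and XBP1), beside 17.3% and 14.6% of all genes with at least 10 reads. Among genes with at least 1000 reads, which include every member except PRDM1, 7.93% were lower and 6.87% higher past this limit. The median log2 fold change was -0.38 over the 7 identity factors and 0.71 over the 3 plasma cell factors, and -0.015 over all genes. The median of the plasma cell factors is the value of XBP1, and without PRDM1, which a minimum of 100 reads removes, it was 0.33. Scaling to total counts gave 3 lower members with EBF1 added, and removal of the trend over GC content left only PAX5. In bulk RNA, fewer cells of a kind and less RNA per cell cannot be told apart.

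**Figure D1:**
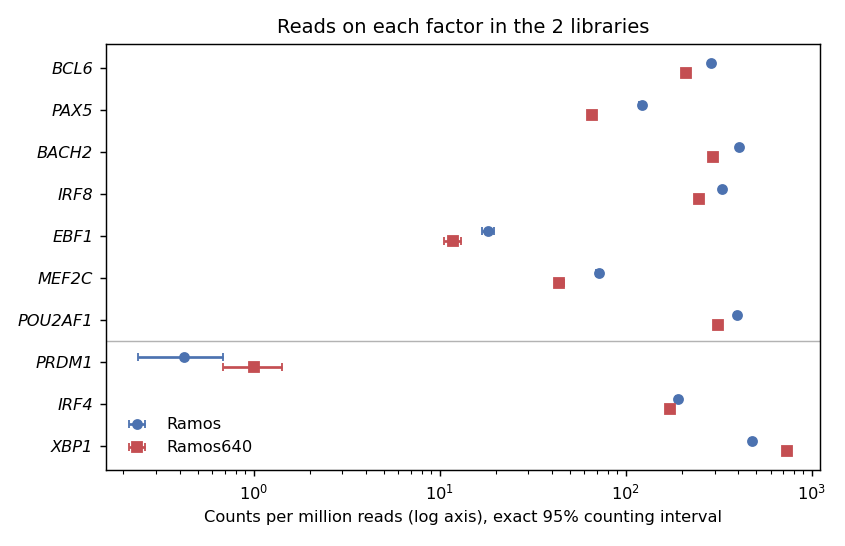
Levels in CPM (log axis) of the 10 factors in the Ramos library (blue circles) and the Ramos640 library (red squares), with exact 95% counting intervals and a grey line between identity and plasma cell factors. The 7 identity factors and IRF4 lie to the left in Ramos640, while PRDM1 (0.421 and 1.00 CPM) and XBP1 (474 and 733 CPM) lie to the right.

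PAX5, the paired-box factor that commits and keeps cells in the B lineage, differed most among the identity factors. Its gene spans positions 36833266 to 37034265 of chromosome 9 (GRCh37). The Ramos library held 4624 PAX5 reads (122 CPM), against 2039 (66.0 CPM) for Ramos640. The log2 fold change was -0.80 (interval from -0.88 to -0.72), a normalized level 42.6% lower in Ramos640. Among the genes with at least 1000 reads, 3.72% had a lower value than PAX5. EBF1, which acts upstream of and together with PAX5 in early B cells, was the least read of the identity factors. It had 692 and 362 reads on chromosome 5 (158122928 to 158526924), and its log2 fold change was -0.55 (interval from -0.74 to -0.37). This is 1.47-fold lower, just inside the limit of 1.5, which MEF2C passed at 1.55-fold lower.

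MEF2C, a MADS-box factor that serves proliferation after B-cell receptor signals, is on the same chromosome at 88012934 to 88200074. Its reads numbered 2731 for Ramos against 1355 for Ramos640, a log2 fold change of -0.63 (interval from -0.73 to -0.54). The transcripts of MEF2C and EBF1 had the lowest GC content of the members (38.1% and 41.1%), and in these libraries the log2 fold change followed GC content over 10228 protein-coding genes. Split into 10 equal bins by GC content, these genes had a median of -0.35 in the most AT-rich bin and of 0.18 in the most GC-rich bin. With this trend removed, MEF2C was at -0.33 and EBF1 at -0.32, whereas PAX5 (53.6% GC) moved the other way to -0.93. The part of base composition in these differences was not tested.

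BCL6, the repressor that defines the germinal centre state, had 10949 and 6530 reads on chromosome 3 (187439165 to 187463513). Its level went from 288 to 212 CPM, and the log2 fold change was -0.36 (interval from -0.41 to -0.32). BACH2, which delays plasma cell differentiation by repressing PRDM1, was close to this value with 15440 and 9094 reads on chromosome 6 (90636247 to 91006562) and a log2 fold change of -0.38 (interval from -0.42 to -0.35). The interferon regulatory factor IRF8, which is high in germinal centre cells and partners with PU.1, had 12547 and 7657 reads on chromosome 16 (85932722 to 85956212), a log2 fold change of -0.33 (interval from -0.37 to -0.29). These 3 factors were lower by 20.5% to 23.3% and lay inside the 1.5-fold limit. Among genes with at least 1000 reads, 17.0% to 20.1% had lower values than they did, so that differences of this size were common in the comparison.

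POU2AF1 (OBF-1, the B-cell coactivator of OCT factors) is needed for germinal centres and is also expressed in plasma cells. Ramos had 14993 reads of it and Ramos640 9643, on chromosome 11 (111222980 to 111326355). Its log2 fold change of -0.26 (interval from -0.29 to -0.22) was the smallest among the identity factors under this scaling. With the GC trend removed POU2AF1 was at -0.38 and no longer the smallest. Before that removal, 25.6% of genes with at least 1000 reads had a lower value.

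XBP1 was the most abundant member by CPM in both libraries. Its gene (chromosome 22, 29190543 to 29196585) was hit by 18028 reads (474 CPM) for Ramos and by 22624 (733 CPM) for Ramos640. The log2 fold change was 0.71 (interval from 0.68 to 0.74), a 1.63-fold higher level in Ramos640, and 95.6% of genes with at least 1000 reads had a lower value. A processed pseudogene on another chromosome, XBP1P1, had 6 and 21 reads.

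PRDM1 was at the other end of the scale. The gene (chromosome 6, 106441338 to 106557814) held only 16 Ramos reads and 31 Ramos640 reads, or 0.421 and 1.00 CPM, where a count of 0 would allow up to 0.0789 and 0.0972 CPM. The log2 fold change was 1.28 with a wide interval from 0.42 to 2.30, and it ranged from 0.92 to 1.33 over the pseudocounts and scalings tried. ATG5, on the opposite strand, overlaps PRDM1 and had 1517 and 1165 reads, and whether strand was used in counting is not stated, so the few PRDM1 reads are uncertain. BCL6, PAX5, BACH2, EBF1, MEF2C and POU2AF1 also overlap genes annotated on the opposite strand.

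IRF4, which at low levels serves the germinal centre reaction and at high levels plasma cell differentiation, was nearly level between the libraries. It had 7255 and 5369 reads on chromosome 6 (391739 to 411443), or 191 and 174 CPM. The log2 fold change was -0.053 with an interval from -0.10 to -0.0021, which is a level 3.62% lower in Ramos640. With the GC trend removed it was -0.016.

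**Figure D2:**
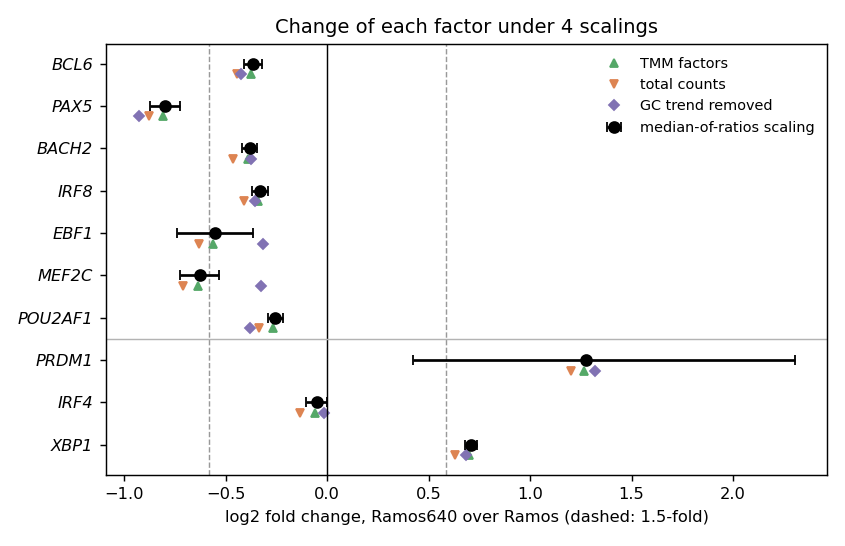
Log2 fold change of Ramos640 over Ramos for each factor (black, with exact 95% counting intervals) and the same value under TMM factors, total counts and removal of the GC trend (colored marks); dashed lines mark 1.5-fold. All 7 identity factors lie left of 0 under each scaling shown, XBP1 lies from 0.63 to 0.71, and EBF1 and MEF2C move most toward 0 when the GC trend is removed.

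Ratios of reads between members inside a library do not depend on the scaling between libraries, and gene length cancels when a ratio is compared across libraries. For each PRDM1 read there were 684 BCL6 reads in Ramos and 211 in Ramos640, so that the ratio was 3.25 times larger in Ramos (exact conditional interval from 1.72 to 6.36). The ratio of PAX5 to PRDM1 differed by 4.39 (interval from 2.32 to 8.62) and that of BACH2 to PRDM1 by 3.29 (interval from 1.74 to 6.44). These 3 ratios share the 47 reads of PRDM1. PAX5 to XBP1, both well read, went from 0.256 to 0.0901, a difference of 2.85 times (interval from 2.69 to 3.01). IRF8 to IRF4 differed least, from 1.73 to 1.43, or 1.21 times (interval from 1.16 to 1.27).

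Levels of different factors were compared as reads per kilobase of the canonical transcript, scaled to each library's total (RPKM). In Ramos the order ran from XBP1 (265 RPKM) through POU2AF1 (137), IRF8 (124), BCL6 (87.1), BACH2 (44.1), IRF4 (35.9), PAX5 (13.97), MEF2C (9.86) and EBF1 (3.37) to PRDM1 (0.0817). XBP1 stood above 98.0% of protein-coding genes with at least 10 reads, and PRDM1 above 4.26%. In Ramos640 the order was the same apart from IRF4 (32.7 RPKM, interval from 31.9 to 33.6) and BACH2 (32.0 RPKM, interval from 31.3 to 32.6), which changed places with overlapping intervals. All other neighbours in the order differed beyond counting error in both libraries. XBP1 stood at 409 RPKM in Ramos640, while PAX5 stood above 67.1% of protein-coding genes in Ramos and above 56.1% in Ramos640. When the length of all annotated exons was used instead, BCL6 and IRF8 exchanged their places in both libraries. With that length the Ramos640 intervals of IRF4 (from 28.4 to 29.9 RPKM) and BACH2 (from 26.6 to 27.7) did not overlap.

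The surrounding genes were examined to see whether a member's value was shared by its chromosome region, with the 10 nearest protein-coding genes of at least 100 reads on each side. PRDM1 and XBP1 were higher than all 20 of their neighbours, whose medians were -0.065 and 0.21. The interval of XBP1 (from 0.68) stayed above its highest neighbour (0.58), while that of PRDM1 (from 0.42) held SOBP at 0.72. MEF2C was lower than all 20 (median -0.28), and PAX5 was lower than 19 of 20 (median 0.14). The interval of MEF2C (from -0.73 to -0.54) held its neighbour RASA1 at -0.59. That of PAX5 (from -0.88 to -0.72) held its nearest neighbour, ZCCHC7, at -0.74, and RECK was lower than PAX5 at -1.81. The GC trend was not removed from the values compared here. EBF1 (median -0.16), IRF8 (0.14) and POU2AF1 (0.11) were lower than 18, 15 and 17 of their 20 neighbours. Their intervals also held neighbours, among them HMMR (-0.65) for EBF1, ZCCHC14 (-0.36) for IRF8 and C11orf1 (-0.26) for POU2AF1. BCL6 and BACH2 were lower than 8 and 13 of their 20 neighbours. The neighbours of BCL6 had a median of -0.49 with 16 of 20 below 0, and those of BACH2 had a median of -0.32 with 15 of 20 below 0. IRF4 lies near the end of its chromosome and had 11 such neighbours with a median of -0.35, 7 of them lower than IRF4 itself.

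**Figure D3:**
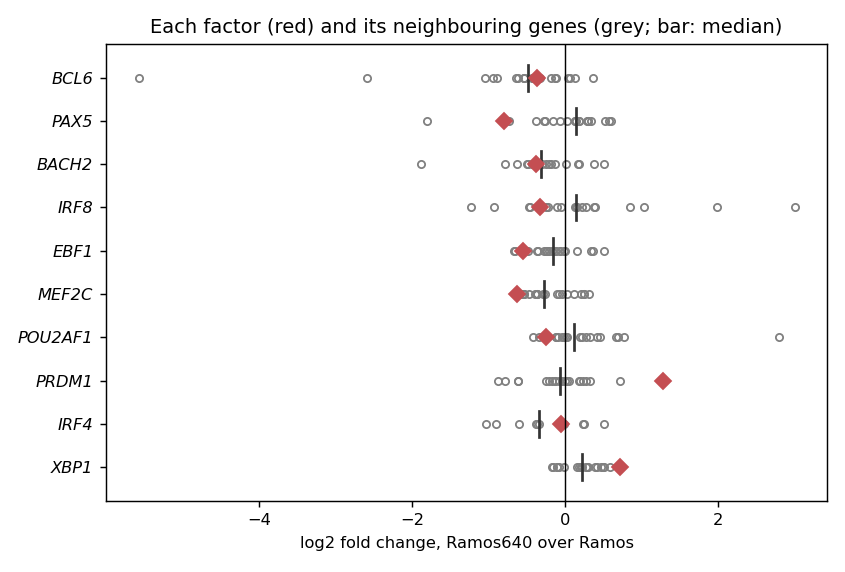
Log2 fold change of Ramos640 over Ramos of each factor (red diamonds) and of its nearest protein-coding genes with at least 100 reads (grey circles, 20 per factor and 11 for IRF4), with a bar at the neighbours' median. The points of PRDM1, XBP1 and MEF2C lie outside the range of their neighbours, but the counting intervals of PRDM1 and MEF2C reach into it. BCL6 and BACH2 lie close to the medians of their neighbours (-0.49 and -0.32).

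Germinal centre genes other than these factors were mostly lower in Ramos640. Of 19 listed genes 18 had at least 10 reads, and of these 14 had intervals below 0 and 4 above, with 5 lower and 1 higher past 1.5-fold. The median log2 fold change was -0.34. For this list and those that follow, the shares over all genes with at least 10 reads were 31.6% below 0 and 29.6% above. At 1000 reads or more they were 39.4% and 40.9%. Past 1.5-fold, 17.3% of all genes with at least 10 reads were lower and 14.6% higher. The lists were written with earlier results of these data known. LMO2, a cofactor typical of germinal centre B cells, had 1138 and 347 reads (-1.33), and MME, which encodes CD10, had 12005 and 4880 reads (-0.92). Removal of the GC trend gave -1.47 for LMO2 and -0.62 for MME. RGS13, a regulator of chemokine signals, had 12457 and 5559 reads (-0.78). With the GC trend removed RGS13 was at -0.40, inside the limit, and 4 genes of the list were lower past it. Higher values were found for FAS (233 and 286 reads, 0.67), BCL7A (0.24) and P2RY8 (0.19). SERPINA9 had 7 reads in Ramos and 0 in Ramos640, too few to be counted, and is named after its values were seen.

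Plasma cell genes leaned the other way. Of 16 listed genes 15 had at least 10 reads, 9 with intervals above 0 and 4 below, and 6 were higher and 2 lower past 1.5-fold, with a median of 0.34. SLAMF7, a surface receptor of plasma cells, had 21 reads in Ramos and 426 in Ramos640 (4.65, interval from 4.09 to 5.43). SEC11C, a signal peptidase subunit (1849 and 2871 reads, 1.02), and SSR4, a subunit of the translocon-associated complex (5358 and 7937 reads, 0.95), followed. TNFRSF17, the receptor BCMA on which plasma cells depend, was lower (1887 and 874 reads, -0.73, and -0.49 with the GC trend removed), as were TXNDC5 (-0.35) and FNDC3B (-0.22). CAV1 was the other gene below the limit, with 17 reads and 1 read. CAV1 and SDC1 are named after their values were seen. SDC1, which encodes the plasma cell marker CD138, had 1 read in Ramos and 3 in Ramos640, so that this defining marker was at the floor in both libraries.

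Among 22 listed genes of the secretory pathway and stress response linked to XBP1, 12 had intervals above 0 and 6 below. Past 1.5-fold, 7 were higher and 1 lower. Whether XBP1 drives each of them in these cells was not tested. The median was 0.18, with 0.36 after removal of the GC trend and 0.098 under total counts, where 5 genes were higher past the limit. The highest values were those of HSP90B1, a chaperone (7195 and 10902 reads, 0.98), HERPUD1, a component of endoplasmic reticulum-associated degradation (0.86), and PDIA6, a disulfide isomerase (10605 and 14558 reads, 0.84). EDEM1, which takes part in the degradation of misfolded glycoproteins, was lower (5809 and 2950 reads, -0.60) and came inside the limit at -0.52 with the GC trend removed. SEC61B (-0.26) and SPCS2 (-0.19) were lower as well, and SPCS2 was at 0.12 with the GC trend removed. The direction within this list therefore differed from gene to gene.

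**Figure D4:**
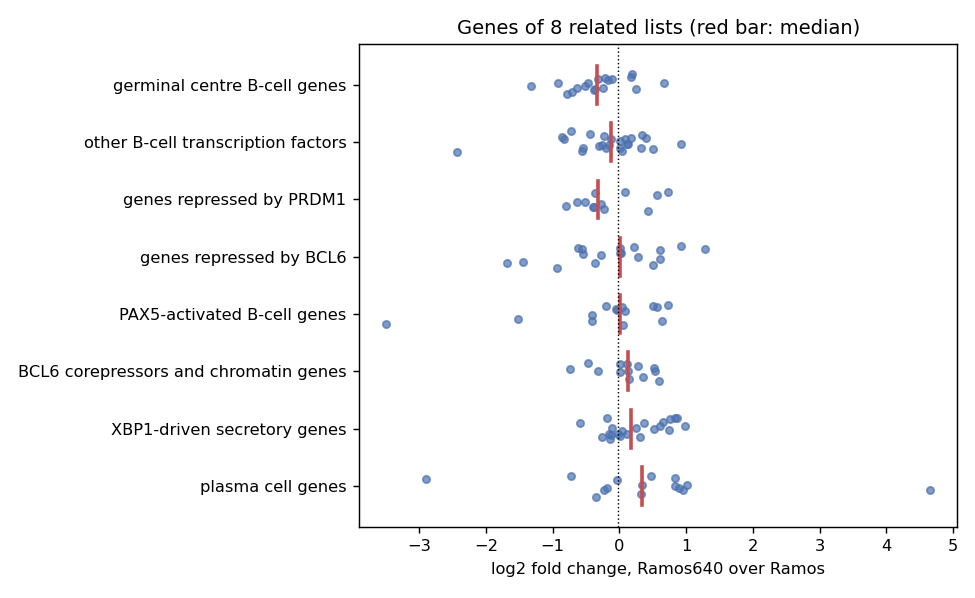
Log2 fold change of Ramos640 over Ramos of every gene with at least 10 reads in 8 lists related to the factors (blue points, spread vertically for sight), with red bars at list medians and a dotted line at the median of all genes (-0.015). Medians run from -0.34 for germinal centre genes to 0.34 for plasma cell genes.

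Genes that PRDM1 represses numbered 12, of which 3 had intervals above 0 and 8 below, with 2 lower and 1 higher past 1.5-fold and a median of -0.32. The list holds BCL6, PAX5 and BACH2, and without them 5 of 9 genes were below 0 and 3 above. MYBL1, a MYB family factor of germinal centre B cells, was lower (6543 and 3243 reads, -0.63). With the GC trend removed MYBL1 was at -0.30, and PAX5 was then the 1 gene of the list lower past 1.5-fold. CIITA, the activator of MHC class II genes, was higher (1134 and 1441 reads, 0.73), as were CD79A (0.57) and STAT6 (0.43).

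Genes that BCL6 represses showed no common direction, with 5 intervals above 0 and 6 below among 18 genes, 4 higher and 4 lower past 1.5-fold, and a median of 0.0062. Only 1 gene higher and 2 lower past the limit had at least 100 reads, and total counts gave 2 higher and 6 lower. Without BCL6 and PRDM1, which are on the list themselves, 4 of 16 lay above 0 and 5 below. CDKN1B, the cell cycle inhibitor p27, had 581 and 846 reads (0.92), and BCL2L1 was at 0.50. CD69, an early activation marker, had 353 and 99 reads (-1.45), followed by CHEK1 (-0.62) and ATR (-0.57). Removal of the GC trend gave -1.10 for CD69, -0.37 for CHEK1 and -0.29 for ATR. Corepressors of BCL6 and chromatin genes of the germinal centre had 8 intervals above 0 and 3 below among 13 of 14 genes with enough reads, 1 gene each way past 1.5-fold and a median of 0.13, which was 0.0036 with the GC trend removed. Under that setting, TMM factors and total counts 0 genes of this list were higher past the limit. BCOR (0.53) and HDAC3 (0.52), both parts of BCL6 repressor complexes, had more normalized reads in Ramos640, while TBL1XR1 (-0.74, and -0.38 with the GC trend removed), TBL1X (-0.47) and EZH2 (-0.32) had fewer.

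Genes activated by PAX5 were split although PAX5 itself was lower. Of 14 genes, 4 had intervals above 0 and 6 below, 2 were higher and 2 lower past 1.5-fold, and the median was 0.0057. The list holds IRF4, and the other 13 genes had 4 intervals above 0 and 5 below, with a median of 0.041. The B-cell receptor chains CD79B (69495 and 82890 reads, 0.64) and CD79A (25460 and 29007 reads, 0.57) were higher, and CIITA is on this list too. CD79B was inside the limit under total counts (0.56) and with the GC trend removed (0.42). CR2, the complement receptor CD21, had 1226 reads in Ramos and 83 in Ramos640 (-3.49, interval from -3.84 to -3.18). VPREB3 (438 and 117 reads, -1.52) and FCRLA (-0.42) were the next lowest.

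Of 25 other B-cell transcription factors, 7 had intervals above 0 and 12 below, 1 was higher and 4 lower past 1.5-fold, and the median was -0.13. POU2F2, which encodes the OCT2 partner of POU2AF1, had 2921 and 4245 reads (0.92), and MEF2D (0.50), a relative of MEF2C, and NFIL3 (0.40) followed. TCF4, an E protein of germinal centre and plasmacytoid dendritic cells, had 2599 and 367 reads (-2.44), and its 20 neighbours on chromosome 18 had a median of -1.51. FOXO1, a factor of the dark zone of the germinal centre, had 1917 and 811 reads (-0.86), and RUNX1 had 561 and 242 (-0.83).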

How the data were processed

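RNA-seq libraries of Ramos and Ramos640 cells (Ion Total RNA-seq Kit) were analysed, 1 per cell line, as grouped by the sample labels. The authors removed adaptors, aligned the reads to GRCh37 with MapSplice (v2.1.6) and deposited raw counts per gene. The counting program, its annotation, strand setting and treatment of reads that fit several genes are not given in the sources used here. Libraries held 38030090 and 30871826 reads. Of the 37122 rows, 28 carry a number in place of a gene name and were kept.

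With 1 library per line no dispersion can be estimated, so no test between lines was run and no p-value is given. Counts were scaled by median-of-ratios size factors, a pseudocount of 1 was added, and genes with at least 10 reads were kept (18778). Clopper-Pearson intervals (95%, scipy 1.17.1) cover counting error only, and reads are not independent molecules. Alternatives were TMM factors (edgeR 4.0.16), total counts, pseudocounts of 0.1 and 10, minimums of 1 and 100 reads, a fold limit of 2 and removal of a running median over 501 genes ordered by GC content. Positions, lengths and GC content came from GENCODE v44lift37 on GRCh37 (83.1% of genes tested), promoter windows from RefSeq (GRCh38.p14), placed on GRCh37 by exact match. GCSAM, JCHAIN and KMT2D were read under older symbols.

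Members and lists were chosen with earlier results of these data known. Named genes are the members and, from each list, up to 3 largest rises and 3 largest falls with at least 100 reads and an interval without 0; some genes that this rule names are not reported here.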

Additional observations from a re-analysis of the deposited data

How the results depend on the processing

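The 7 identity factors were lower, and PRDM1 and XBP1 higher, in Ramos640 under every scaling, pseudocount, read minimum and GC setting that kept them. Their ranges were -0.93 to -0.80 for PAX5, -0.71 to -0.33 for MEF2C, -0.63 to -0.32 for EBF1, -0.44 to -0.36 for BCL6, -0.46 to -0.38 for BACH2, -0.41 to -0.33 for IRF8, -0.38 to -0.26 for POU2AF1, 0.92 to 1.33 for PRDM1 and 0.63 to 0.71 for XBP1. IRF4 ranged from -0.13 to -0.016. Scaling to total counts moved the median of the identity factors to -0.46, that of the plasma cell factors to 0.63 and that of all genes to -0.095. A minimum of 100 reads removed PRDM1, which left 1 member higher past 1.5-fold, 1 interval above 0 and a plasma cell median of 0.33. Removing the GC trend left 1 member lower past 1.5-fold, and a fold limit of 2 left 1 higher (PRDM1) and 0 lower. SPCS2 turned from -0.19 to 0.12 when the GC trend was removed, the 1 named gene whose sign changed. P2RY8 has no GC value and gave none there. Of the list counts and medians, 224 stayed within 1.5 times or within counting error and 43 moved further. Of the fold changes of named genes that are not members, 281 stayed within counting error and 60 moved by more than that with no change of sign. All 60 moves came under total counts or removal of the GC trend. A read minimum cannot alter a fold change that it keeps, so the 281 are no measure of stability. The use of all annotated exons as gene length was chosen after seeing the data. No replicate could be left out, and depth limits PRDM1 most among the members, at 47 reads. No paired analysis was possible because each cell line has 1 library.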
